A study of Mus musculus with 194 samples.

Results

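Insertions recorded by calling cards were followed at 4 genes that handle thyroid hormone in the brain: Slco1c1, Dio2, Thra and Thrb. They were chosen from 21627 protein-coding genes for their counts of insertions across the groups, so the levels given below are a description of those counts and carry no test. A locus is the gene body in GRCm38 with 10 kb on each side, and a level is the number of insertions in the locus in every 1000000 insertions of the animal's table, abbreviated IPM. Calling cards place a reporter transposon at TTAA sequences near the genomic position of a transposase, and 1 line of a deposited table is 1 insertion.

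The series holds 46 mice in 11 groups and the neuroblastoma line N2a. All mice were injected with adeno-associated virus at postnatal day 0 to 1. C57bl6J mice (n = 2) received viruses that do not need Cre. Syn1Cre (n = 6) and GFAPCre (n = 6) are named for Cre lines usually used for neurons and for astrocytes, and Syn1CreNeg (n = 6) and GFAPCreNeg (n = 6) are their Cre-negative counterparts. The Syn1Cre_SP1 groups carry the name of the transcription factor SP1 and were labelled P28 (n = 4) or P10 (n = 3), read here as the day of age. Frontflip_GFAPCre (n = 3) and Frontflip_GFAPCreNeg (n = 3) are named for a further construct that the labels do not describe. Rbp4Cre_TRAP (n = 4) came from whole forebrain, and BrokenHeart (n = 3) was read from DNA, whereas the other libraries were read from RNA. Cortices read from RNA were divided into 10 parts, and the parts of an animal are pooled in 1 table. The labels give neither the transposase, nor the makeup of the SP1 construct, nor the age of the groups without an age in their name, so that in a comparison of an SP1 group with Syn1Cre the construct, the age and the library series cannot be told apart.

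Thyroid hormone reaches the brain mostly as thyroxine, which is carried across membranes by transporters such as the one encoded by Slco1c1, found in brain capillary endothelium and in astrocytes. Dio2 encodes the deiodinase that turns thyroxine into the active hormone triiodothyronine, and in the brain it is best known from astrocytes and tanycytes. Triiodothyronine then acts through nuclear receptors, of which Thra is the main one in most neurons and Thrb has narrower sites of action, and these receptors bind DNA with retinoid X receptors as partners.

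Depth differed widely. Tables held between 443158 and 1505413 insertions in the Syn1Cre and GFAPCre animals, 97519 to 597230 in their Cre-negative counterparts, 86842 to 577609 in the SP1 groups, 160631 to 205559 in Frontflip_GFAPCre and 1545951 to 2186743 in C57bl6J. The tables of BrokenHeart (42511 to 98197), Rbp4Cre_TRAP (24408 to 57014) and Frontflip_GFAPCreNeg (2341 to 9601) were shallow, and a member held 0 to 8 insertions per animal in the last of these. Syn1Cre animal 5 stood apart from the other 5 Syn1Cre animals, with 2252 IPM summed over 10 astrocyte marker loci against 642 to 894, and results that rest on it are given without it as well. Whether the animals of a group share a litter is not given, so p-values measure the spread between these animals. The labels of Syn1Cre and Syn1CreNeg animals 1 to 3 are written in another layout than those of animals 4 to 6, and values within each layout are given beside the pooled ones. Of the 194 GEO samples, 77 name animals of more than 1 group. None of them names a Syn1Cre animal together with a Syn1CreNeg, GFAPCre or SP1 animal. In those comparisons the group and the samples sequenced together cannot be told apart.

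The annotated starts of 3 members frame what follows, and the stretch from 250 bases before to 50 bases after each start is shown (RefSeq, GRCm38.p6), with every TTAA, the sequence at which the transposon inserts, in capitals. Dio2 lies on chromosome 12 (chr12:90724552-90739038, minus strand), Slco1c1 on chromosome 6 (chr6:141524354-141570177, plus strand) and Thrb on chromosome 14 (chr14:17659225-18040097, plus strand), where 2 starts are annotated, of which the first is shown. Thra lies at chr11:98740776-98769006.
Dio2 start, chr12:90738989-90739288, minus strand: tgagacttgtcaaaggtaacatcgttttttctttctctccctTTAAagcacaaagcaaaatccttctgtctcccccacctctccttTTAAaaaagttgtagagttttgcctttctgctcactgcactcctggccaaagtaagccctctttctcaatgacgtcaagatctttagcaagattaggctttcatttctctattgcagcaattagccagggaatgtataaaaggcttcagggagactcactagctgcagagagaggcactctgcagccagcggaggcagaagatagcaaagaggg
Slco1c1 start, chr6:141524104-141524403, plus strand: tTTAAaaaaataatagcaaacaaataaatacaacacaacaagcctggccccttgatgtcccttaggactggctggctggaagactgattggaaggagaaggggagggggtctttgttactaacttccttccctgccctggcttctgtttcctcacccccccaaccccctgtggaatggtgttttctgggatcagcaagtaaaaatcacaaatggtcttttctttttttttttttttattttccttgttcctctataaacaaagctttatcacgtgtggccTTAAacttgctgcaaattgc
Thrb first start, chr14:17660710-17661009, plus strand: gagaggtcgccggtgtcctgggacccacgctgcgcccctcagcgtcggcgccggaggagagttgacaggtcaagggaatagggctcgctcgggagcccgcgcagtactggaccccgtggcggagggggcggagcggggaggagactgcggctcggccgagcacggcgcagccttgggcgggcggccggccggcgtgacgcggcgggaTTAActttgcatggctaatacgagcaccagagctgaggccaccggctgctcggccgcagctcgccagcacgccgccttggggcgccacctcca
The Dio2 stretch holds 2 TTAA sites, and both were among the 5 sites of the locus hit most often in the animals. The site 208 bases before the start took 198 insertions in 36 tables, and the site 164 bases before it took 223 in 35 tables. The Slco1c1 stretch also holds 2 such sites, but these took 6 and 24 insertions. The single site of the Thrb stretch, 43 bases before the start, took 21. Base composition set the stretches apart: G and C made up 72.67% of the Thrb stretch, 44.67% of the Dio2 stretch and 42% of the Slco1c1 stretch. The GC box GGGCGG, the sequence that SP1 is known to bind, was searched on both strands and occurs 3 times in the Thrb stretch and in neither of the other two. It occurs in 35.9% of 32619 promoters of this length. The Dio2 stretch holds 1 cyclic AMP response element TGACGTCA, present in 1.803% of these promoters, and 1 TATAAA, present in 13.66%. Slco1c1 has 1 TATAAA as well. A match of letters is a description of the sequence and not evidence of binding.

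Dio2, the activating enzyme, had a higher IPM in Cre-negative than in Cre-positive animals of both lines. In Syn1Cre animals 1 to 6 its level was 99.6, 96.6, 80.6, 118, 284 and 105 IPM. In Syn1CreNeg animals 1 to 6 it was 605, 420, 319, 307, 431 and 414. Every Syn1Cre animal lay below every Syn1CreNeg animal, although Syn1Cre animal 5 came close. In GFAPCre animals 1 to 6 the level was 149, 79.0, 175, 146, 114 and 82.2 IPM, and in GFAPCreNeg animals it was 255, 331, 323, 232, 271 and 548. The 2 GFAP groups did not overlap either. The share of all loci whose groups do not overlap was not counted, here or in the comparisons below. The means were 131 ± 76.2 (SD, n = 6) in Syn1Cre, 416 ± 107 (SD, n = 6) in Syn1CreNeg, 124 ± 39.0 (SD, n = 6) in GFAPCre and 327 ± 115 (SD, n = 6) in GFAPCreNeg. The Syn1Cre mean includes animal 5 at 284 IPM, and the medians were 103 in Syn1Cre and 130 in GFAPCre.

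Slco1c1, the transporter, was also higher on average in both Cre-negative groups, although its GFAP groups overlapped. Its level in Syn1Cre animals 1 to 6 was 66.4, 73.9, 71.7, 136, 309 and 111 IPM. Syn1CreNeg animals had 623, 431, 470, 313, 409 and 416. Animal 5 was again the highest Syn1Cre animal and lay just under the lowest Syn1CreNeg animal. GFAPCre animals had 201, 120, 240, 199, 138 and 132 IPM. GFAPCreNeg animals had 271, 325, 320, 212, 275 and 442, so that GFAPCre animal 3 exceeded the lowest Cre-negative animal. The means were 128 ± 92.8 (SD, n = 6) in Syn1Cre, 444 ± 102 (SD, n = 6) in Syn1CreNeg, 172 ± 48.3 (SD, n = 6) in GFAPCre and 308 ± 77.5 (SD, n = 6) in GFAPCreNeg.

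The receptors behaved otherwise. Thra had 91.7, 75.1, 61.6, 46.2, 58.7 and 51.5 IPM in Syn1Cre animals 1 to 6. Syn1CreNeg animals had 55.8, 82.0, 67.2, 48.5, 62.2 and 23.4, within or around the same range. GFAPCre animals lay between 50.4 and 61.6 (median 56.8) and GFAPCreNeg animals between 29.7 and 57.7 (median 51.7). Thrb, whose locus of 400.9 kb is the longest of the 4, had 316, 266, 353, 280, 323 and 263 IPM in Syn1Cre and 363, 318, 277, 383, 285 and 336 in Syn1CreNeg. GFAPCre animals lay between 325 and 365 (median 351) and GFAPCreNeg animals between 307 and 408 (median 392). For both receptors the Cre-positive and Cre-negative ranges overlapped in both lines.

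**Figure D1:**
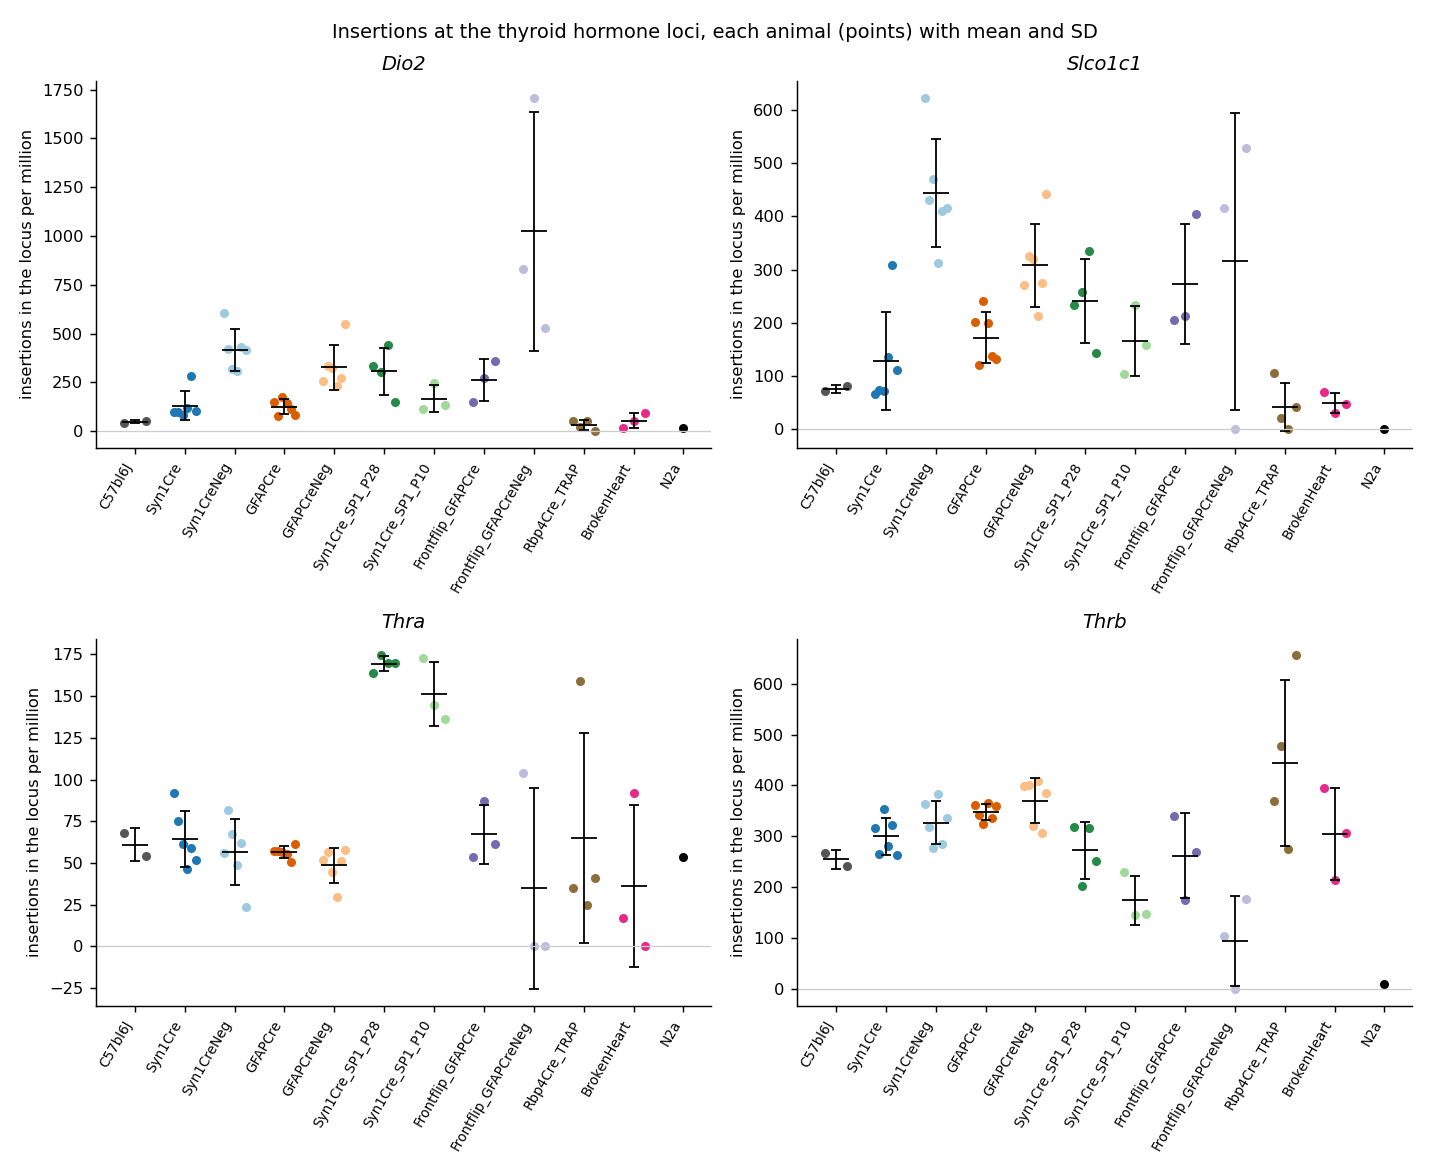
IPM of each animal's table at the 4 loci (y axis, linear) by group (x axis), with 1 point per animal and the mean and SD as bars; N2a is 1 pooled table. For Dio2 the Syn1Cre and Syn1CreNeg points do not overlap, while for Thra the SP1 groups at P28 and P10 stand above Syn1Cre.

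Fitted over all loci, the Syn1Cre against Syn1CreNeg comparison gave Dio2 a log2 fold change of -1.72 (SE 0.23) and Slco1c1 one of -1.82 (SE 0.27), or 0.303 and 0.283 times the Cre-negative level. Thra was at 0.31 (SE 0.22) and Thrb at -0.17 (SE 0.12). Dio2 and Slco1c1 were past the threshold of an adjusted p under 0.05 in edgeR's quasi-likelihood test, and 31.0% of 8610 loci tested were called, 13.5% higher and 17.5% lower. Because the members were chosen on these counts, nothing is read from that. The same holds for every member said to be past the threshold or not in the fits below. Without Syn1Cre animal 5 the values were -2.03 for Dio2 and -2.17 for Slco1c1. Within the first layout, animals 1 to 3 of each group, Dio2 was at -2.29 and Slco1c1 at -2.86, and within the second layout at -1.26 and -1.10.

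In the GFAPCre against GFAPCreNeg comparison the log2 fold change of Dio2 was -1.35 (SE 0.18) and that of Slco1c1 was -0.82 (SE 0.16). Thra was at 0.23 (SE 0.15) and Thrb at -0.08 (SE 0.10). Dio2 and Slco1c1 were again past the threshold, where 8.11% of 9201 loci were called, 2.23% higher and 5.88% lower. Libraries of 3 GFAPCre and 4 GFAPCreNeg animals were sequenced under shared sample names in 20 GEO samples, and within these 7 animals Dio2 was at -1.47 and Slco1c1 at -0.91. These are shares of a table. As counts, Dio2 had 650 insertions in Syn1Cre and 690 in Syn1CreNeg, and 616 in GFAPCre and 782 in GFAPCreNeg, from deeper tables in the Cre-positive groups. In bulk cortex a lower share through fewer carrying cells of a type, fewer insertions in each of them or more insertions in other cells cannot be told apart.

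Set directly against each other, Syn1Cre and GFAPCre gave values that depended on the Syn1Cre animals used. With all 6 the log2 fold change was -0.04 (SE 0.24) for Dio2, -0.54 (SE 0.27) for Slco1c1, 0.09 (SE 0.13) for Thra and -0.28 (SE 0.10) for Thrb. No member was past the threshold, where 2.15% of 11550 loci were called, 1.19% higher and 0.961% lower in Syn1Cre. With the 3 Syn1Cre animals of the first layout alone, the layout in which all GFAPCre labels are written, Slco1c1 was at -1.39 and past the threshold and Dio2 was at -0.53. That fit called 1634 of 12515 loci. Without Syn1Cre animal 5 Slco1c1 was at -0.89 and Thrb at -0.31, both past the threshold, and Dio2 was at -0.34. There 847 of 11914 loci were called.

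**Figure D2:**
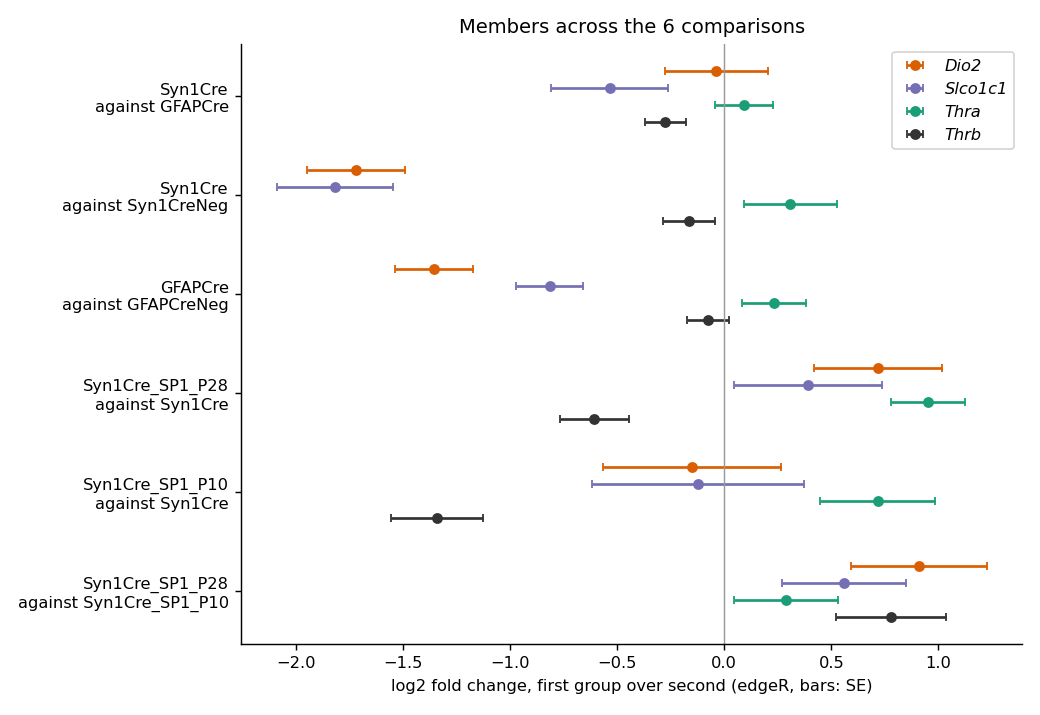
Log2 fold changes from the edgeR fits (x axis) with SE bars for the 4 members in the 6 comparisons (y axis); values below 0 are lower in the group named first. Dio2 and Slco1c1 lie at -0.82 or below against both Cre-negative groups, while Thra and Thrb lie within 0.31 of 0 there.

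Markers of astrocytes moved with Dio2 and Slco1c1. The 10 astrocyte marker loci summed to 642 to 2252 IPM in Syn1Cre (median 810), 2233 to 2987 in Syn1CreNeg (median 2542), 852 to 1797 in GFAPCre (median 1209) and 1589 to 3336 in GFAPCreNeg (median 1811). Aldh1l1 was at 0 in Syn1CreNeg animal 1, and no other astrocyte marker was at 0 in these 4 groups. In the fits of Syn1Cre against Syn1CreNeg, 8 of 8 astrocyte loci tested were lower and past the threshold, beside 17.5% of all loci. Their median log2 fold change was -1.37. In GFAPCre against GFAPCreNeg 8 of 9 were lower, with a median of -0.50 over the 9. Of these 8, 3 were past the threshold, beside 5.88% of all loci. Against GFAPCre, 9 of 9 were below 0 in Syn1Cre (median -0.45), and none was past the threshold. Oligodendrocyte loci summed to 86.4 to 162 IPM in Syn1Cre (median 94.9) and 160 to 261 in Syn1CreNeg (median 213). Of the 3 tested, 2 were lower, both past the threshold, and the median log2 fold change was -2.001. In GFAPCre against GFAPCreNeg 2 of 3 were lower (median -0.72), 1 of them past the threshold. The endothelial loci went the other way, with a median of 71.2 IPM in Syn1Cre and 40.7 in Syn1CreNeg. The 1 endothelial locus tested was higher and past the threshold, beside 13.5% of all loci. The animals highest for Dio2 within Syn1Cre (animal 5), GFAPCre (animal 3) and GFAPCreNeg (animal 6) were also the highest of their group for the summed astrocyte loci. The 7 neuron marker loci summed to like values in these 4 groups, 2456 to 3209 IPM, and the 6 cortical interneuron loci were higher in Syn1Cre (728 to 930) than in the other 3 groups (121 to 328). The part of these cell types in the levels of Dio2 and Slco1c1 was not tested.

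**Figure D3:**
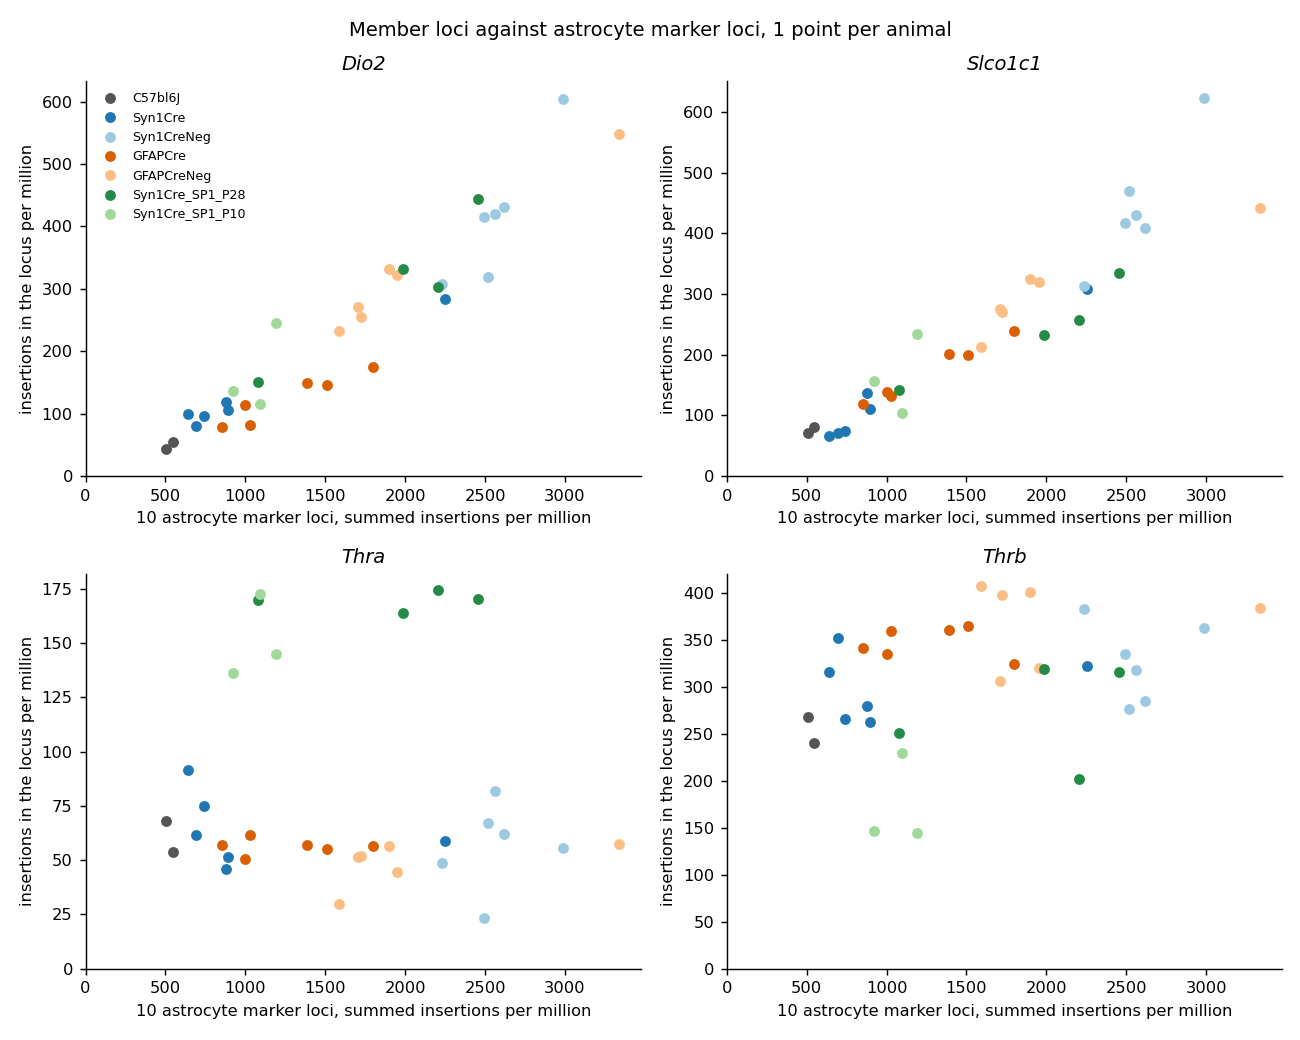
IPM at each member locus (y axis) against the summed level of 10 astrocyte marker loci (x axis), 1 point per animal of 7 groups. Dio2 and Slco1c1 are high where the marker sum is high, up to 3336 IPM in GFAPCreNeg animal 6, whereas Thra stays between 23.4 and 91.7 in all groups but the SP1 groups.

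By likeness over 26 animals of Syn1Cre, Syn1CreNeg, GFAPCre, GFAPCreNeg and C57bl6J, the 3 of 8236 loci closest to Dio2 were Nt5c2 (Pearson r = 0.98 of log2 levels), Gnao1 (0.98) and Slc1a2 (0.98), the last of which encodes the main glial glutamate transporter. Closest to Slco1c1 were Tspan7 (0.98), Pla2g7 (0.98) and Gja1 (0.98), the last encoding an astrocytic gap junction protein. Slc1a2 and Gja1 are both on the astrocyte list. Dio2 and Slco1c1 correlated with each other at 0.95. The closest to Thrb were Nos1ap (0.77), Ube2k (0.74) and Kat6b (0.73), and the closest to Thra were Ak9 (0.81), Ubxn4 (0.78) and Notch3 (0.74). Thra correlated with Dio2 at -0.25 and Thrb with Dio2 at 0.42. The animals share libraries and group, and the loci were ranked on the same values, so these coefficients are descriptions.

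In the SP1 groups the levels of both receptor genes were closer to each other than in Syn1Cre. Thra had 164, 174, 170 and 170 IPM in the 4 animals at P28 and 173, 145 and 136 in the 3 animals at P10. All 7 animals lay above all 6 Syn1Cre animals, of which the highest had 91.7. IPM is scaled by table totals, and in fits scaled so the median log2 fold change of all loci was 0.42 at P28 and 0.27 at P10. The Thra level was 169 ± 4.32 (SD, n = 4) at P28, 151 ± 19.03 (SD, n = 3) at P10 and 64.1 ± 16.7 (SD, n = 6) in Syn1Cre. Thrb had 319, 202, 316 and 251 IPM at P28, which overlapped Syn1Cre, and 230, 145 and 147 at P10, which lay below every Syn1Cre animal. Its mean was 272 ± 56.3 (SD, n = 4) at P28, 174 ± 48.8 (SD, n = 3) at P10 and 300.1 ± 36.0 (SD, n = 6) in Syn1Cre. Dio2 had 332, 303, 443 and 151 IPM at P28, of which 3 lay above all Syn1Cre animals, and 115, 245 and 136 at P10, all inside the Syn1Cre range. Slco1c1 had 233, 257, 334 and 142 at P28 and 104, 234 and 157 at P10, and both groups overlapped Syn1Cre.

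In the fit of P28 against Syn1Cre the log2 fold changes were 0.72 (SE 0.30) for Dio2, 0.39 (SE 0.35) for Slco1c1, 0.95 (SE 0.17) for Thra and -0.61 (SE 0.16) for Thrb. All but Slco1c1 were past the threshold, where 51.5% of 12050 loci were called, 26.2% higher and 25.3% lower. As above, the members were chosen on these counts, and nothing is read from their calls at either age. Scaled by the total of each table in place of TMM, the median of all loci moved from -0.06 to 0.42 and the calls went from 3157 higher of 6211 to 5022 higher of 6249. Thrb was then at -0.13 and not past the threshold, Thra at 1.42, Dio2 at 1.22 and Slco1c1 at 0.90, all 3 past it. In DESeq2 Dio2 was at 0.71 and not past the threshold. Without Syn1Cre animal 5 Slco1c1 was at 0.76 and past it, where 6583 of 12444 loci were called. In P10 against Syn1Cre the values were -0.15 (SE 0.41) for Dio2, -0.12 (SE 0.50) for Slco1c1, 0.72 (SE 0.27) for Thra and -1.34 (SE 0.21) for Thrb. Thra and Thrb were past the threshold, where 40.8% of 12858 loci were called, 19.6% higher and 21.2% lower. With total scaling the median of all loci moved from -0.28 to 0.27, the calls went from 2524 higher of 5249 to 3650 higher of 4797, Dio2 and Slco1c1 turned to 0.42 and 0.45, and Thrb stayed lower at -0.79. Without Syn1Cre animal 5, Dio2 and Slco1c1 turned to 0.17 and 0.25. Thra was past the threshold with total scaling (1.26) and not in DESeq2 (0.68).

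Between the ages, P28 against P10 gave 0.91 (SE 0.32) for Dio2, 0.56 (SE 0.29) for Slco1c1, 0.29 (SE 0.24) for Thra and 0.78 (SE 0.26) for Thrb. Of these Thrb alone was past the threshold, where 11.1% of 3458 loci were called, 7.40% higher and 3.73% lower, and it was not past it with total scaling (0.66) or in DESeq2 (0.76). The astrocyte loci summed to 1080 to 2454 IPM at P28 and 923 to 1192 at P10, and P28 animal 4, the lowest for Dio2 and Slco1c1 at that age, was also the lowest for this sum. The neuron loci summed to 2278 to 2523 at P28 and 1682 to 1941 at P10, below the 2799 to 3059 of Syn1Cre, and the cortical interneuron loci to 1039 to 1624 and 1532 to 2056. The microglia loci summed to 123 to 165 at P28 and 138 to 241 at P10, above the 68.9 to 83.5 of Syn1Cre. These sums are scaled by table totals. In the fit of each age against Syn1Cre, 2 of the 5 microglia loci were tested. At both ages 1 was higher and past the threshold, beside 26.2% of all loci at P28 and 19.6% at P10, and 1 was lower. The part of these cell types in the members' levels was not tested.

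Within the Thra locus the insertions of the SP1 groups lay elsewhere. Nr1d1, which encodes the clock repressor REV-ERB alpha, overlaps the far end of the Thra body (chr11:98767932-98775377), and insertions there count for both genes. The 10 kb past the end of the Thra span held 56.8 ± 19.3 IPM (SD, n = 4) at P28 and 48.2 ± 14.6 (SD, n = 3) at P10, against 10.1 ± 5.11 (SD, n = 6) in Syn1Cre. The gene body held 62.8 ± 18.4 (SD, n = 4), 66.8 ± 22.03 (SD, n = 3) and 24.0 ± 8.34 (SD, n = 6) in the same order. The 10 kb before it held 49.9 ± 8.24 (SD, n = 4), 36.3 ± 14.9 (SD, n = 3) and 30.1 ± 6.03 (SD, n = 6). In the stretch past the end every animal of both SP1 groups was above every Syn1Cre animal. In the gene body this held at P10, where the lowest animal had 52.4 and the highest Syn1Cre animal 37.2, and not at P28.

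Position inside the locus was not used to choose the members and can be tested. Insertions of Dio2 gathered at its start: 45.6% ± 3.44 (SD, n = 6) of them lay within 2 kb of it in Syn1Cre and 54.2% ± 8.89 (SD, n = 6) in GFAPCre, although this stretch is 11.6% of the locus. For Slco1c1 the shares were 29.5% ± 4.01 (SD, n = 6) and 28.01% ± 2.48 (SD, n = 6), for 6.08% of the length. For Thrb they were 20.9% ± 3.72 (SD, n = 6) and 20.9% ± 2.78 (SD, n = 6), for 2.00% of the length. For Thra, where both ends of the gene span stand in for a start, they were 33.2% ± 4.49 (SD, n = 6) and 27.2% ± 6.08 (SD, n = 6), for 16.6% of the length. None of the 4 differed between Syn1Cre and GFAPCre after adjustment over the 11 tests run (exact two-sided permutation tests, adjusted p between 0.137 and 1). The unadjusted p of Dio2 was 0.0498 by the exact permutation test.

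At Thrb, more of the insertions lay near a start in the SP1 groups than in Syn1Cre. The share within 2 kb of a Thrb start was 36.5%, 63.6%, 30.8% and 35.9% in P28 animals 1 to 4 and 55.0%, 61.5% and 85.7% in the 3 P10 animals, against 17.2%, 19.7%, 17.8%, 20.7%, 27.3% and 22.8% in Syn1Cre. Neither SP1 group overlapped Syn1Cre. The difference was 20.8 percentage points at P28 (exact permutation p = 0.00476, adjusted p = 0.0524) and 46.5 points at P10 (exact permutation p = 0.0119, adjusted p = 0.0655). Both raw values are the smallest these group sizes allow, and after adjustment neither passed 0.05. Over 11 tests a lone P28 value at this limit adjusts to 0.0524, so it could not pass whatever the size of the difference. No conclusion is drawn from that failure. Within 5 kb of a start the adjusted p was 0.0262 at P28 and 0.0437 at P10, and over all settings tried it ranged from 0.0262 to 0.0873 at P28 and from 0.0437 to 0.0982 at P10. All 109 such insertions at P28 and all 31 at P10, of 293 and 47 in the locus, lay within 2 kb of the first start. The single TTAA of the GC-rich stretch shown above took 2 of them at P28 and 3 at P10. Among other shallow tables, shares were 38.5%, 38.7% and 42.4% in Syn1CreNeg animals 1 to 3 (31 to 39 insertions in the locus) and 35.8% ± 4.57 (SD, n = 3) in Frontflip_GFAPCre. In Rbp4Cre_TRAP (11 to 24 insertions) and BrokenHeart (13 to 23), with as few insertions as P10, they were 26.8% ± 3.28 (SD, n = 4) and 21.8% ± 5.64 (SD, n = 3). The part of depth in the difference was not tested. Shares near the start were not counted over all loci, so whether the difference is particular to Thrb was not tested.

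For the other 3 members no difference within 2 kb passed adjustment in the SP1 groups. The same limit from group size and number of tests holds there. Dio2 had 41.2% ± 5.64 (SD, n = 4) near the start at P28 and 41.6% ± 7.34 (SD, n = 3) at P10 (exact permutation, adjusted p = 0.262 and 0.349). At P10 its difference from Syn1Cre was past the threshold within 1 kb (-10.6 points) and turned within 5 kb (12.5 points). Slco1c1 had 33.4% ± 6.27 (SD, n = 4) at P28 (adjusted p = 0.349), and at P10 only 2 animals had the 10 insertions required, so no test was made. Thra had 23.4% ± 7.79 (SD, n = 4) and 22.7% ± 13.9 (SD, n = 3) against 33.2% in Syn1Cre (exact permutation, adjusted p = 0.137 and 0.240).

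**Figure D4:**
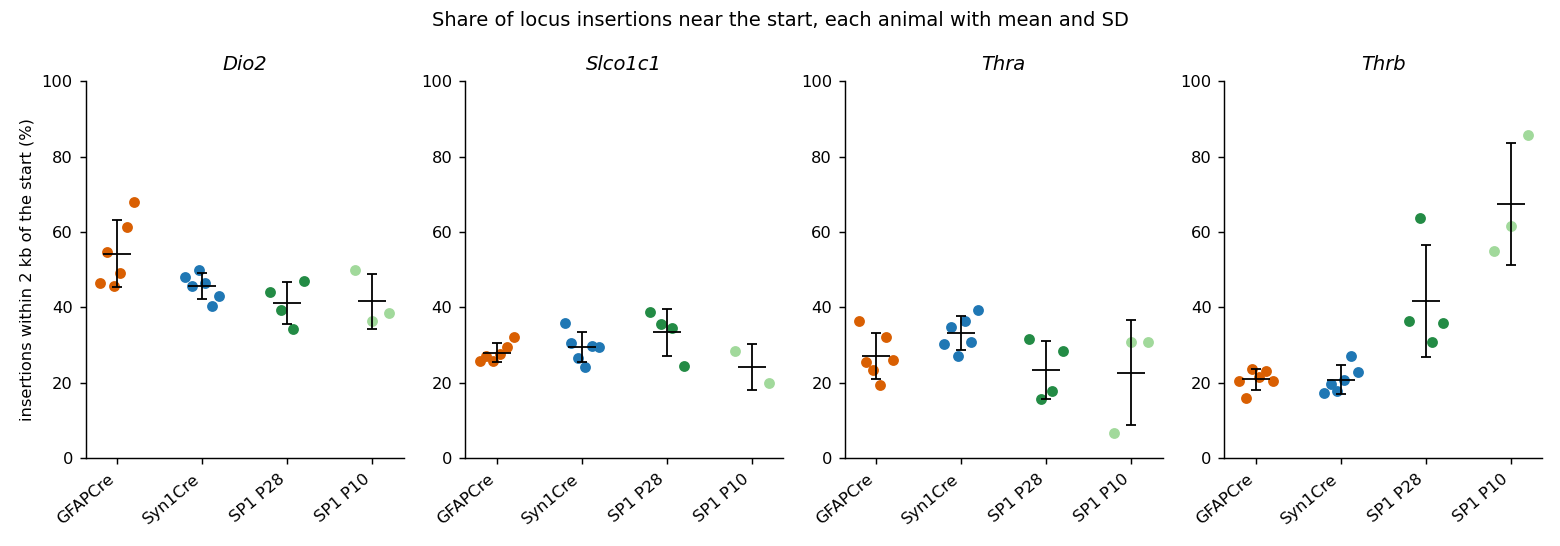
Percent of a locus' insertions within 2 kb of the annotated start (y axis, 0 to 100%), or of either end of the gene span for Thra, 1 point per animal with at least 10 insertions in the locus, with mean and SD. The Thrb points of SP1 P28 (30.8% to 63.6%) and SP1 P10 (55.0% to 85.7%) lie above all Syn1Cre points (17.2% to 27.3%).

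Along the Dio2 locus insertions gathered in a few stretches. The 2 kb before the start held 102 ± 24.5 IPM (SD, n = 6) in Syn1CreNeg and 91.0 ± 37.5 (SD, n = 6) in GFAPCreNeg, against 40.4 ± 9.18 (SD, n = 6) in GFAPCre. A second gathering lay 4 to 6 kb into the gene, with 82.1 ± 22.04 (SD, n = 6) in Syn1CreNeg and 52.3 ± 21.9 (SD, n = 6) in GFAPCreNeg. The TTAA hit most often in the locus (chr12:90734926-90734929) lies in this second stretch and held 253 insertions in 37 animals of 9 groups. Slco1c1 had its highest bin in the 2 kb after the start, 113 ± 32.5 (SD, n = 6) in Syn1CreNeg, and a distant one 44 to 46 kb in, 63.2 ± 24.9 (SD, n = 6). At its most hit site (chr6:141525649-141525652) 285 insertions were found in 35 animals. The 5 sites hit most held 31.4% of the 3403 insertions of Dio2, 24.4% of the 3682 of Slco1c1, 30.5% of the 1352 of Thra and 12.5% of the 6555 of Thrb.

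**Figure D5:**
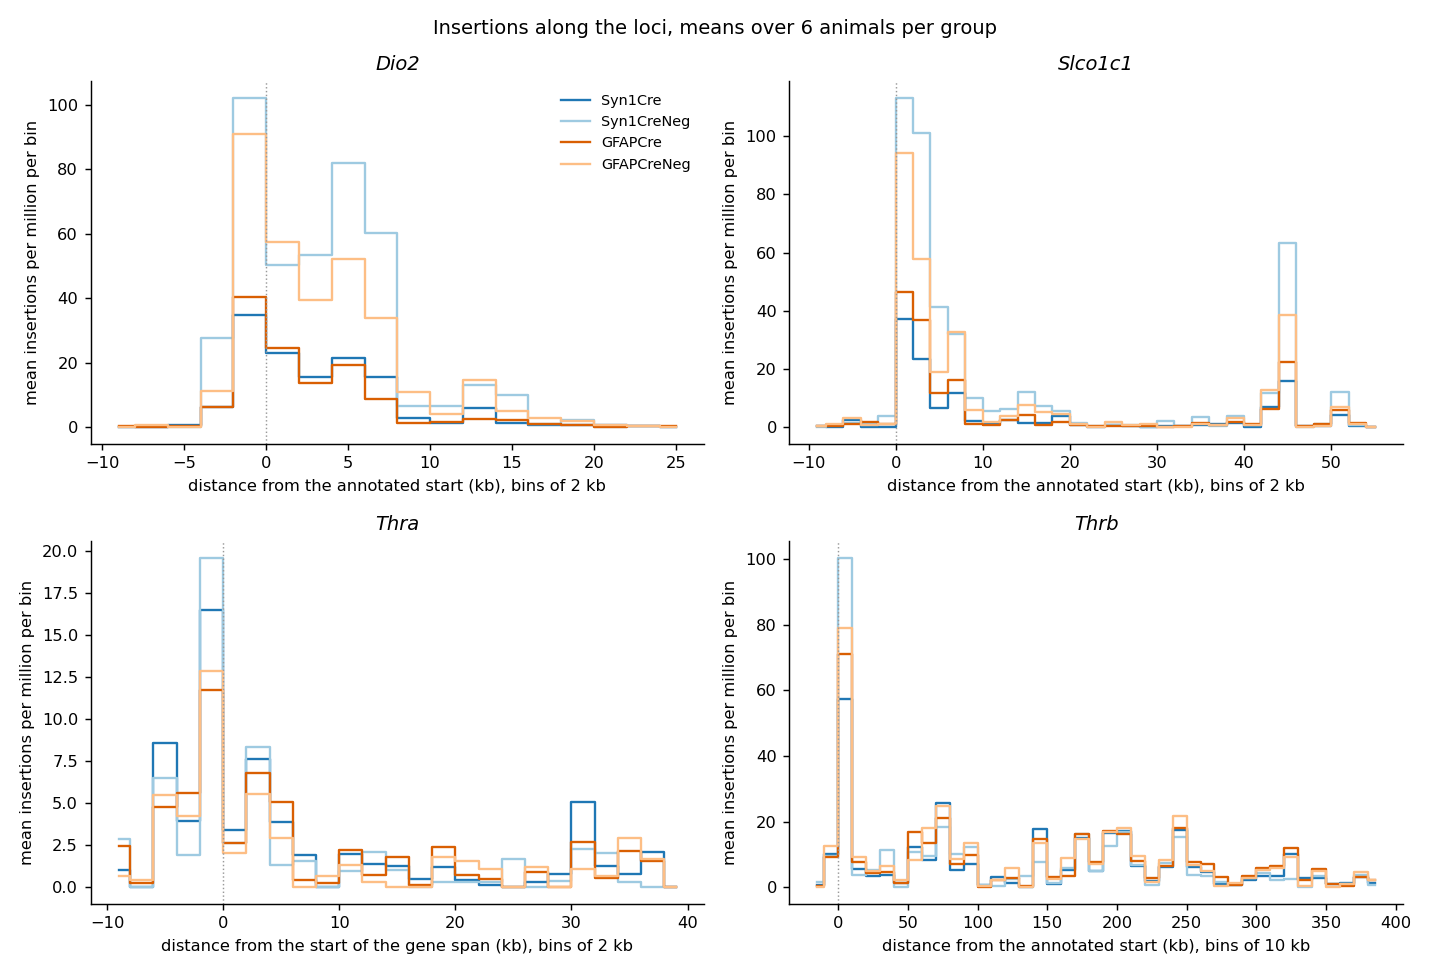
Mean IPM of a bin (y axis) against the distance from the annotated start, or from the lower end of the gene span for Thra (x axis, kb; bins of 2 kb, 10 kb for Thrb), for 4 groups of 6 animals. The Cre-negative lines run above the Cre-positive ones at Dio2, where the 2 kb before the start held 102 IPM in Syn1CreNeg and 40.4 in GFAPCre, and at Slco1c1.

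Orientation also differed between the members. Over the 26 animals named above, 75.1% ± 4.41 (SD, n = 26) of Dio2 insertions were on the strand written as plus in the tables, and no animal was below 67.6%. Thrb stood at 68.1% ± 4.08 (SD, n = 26), with a lowest animal of 59.2%. Slco1c1 was at 54.1% ± 6.44 (SD, n = 26) and Thra at 52.9% ± 11.02 in the 23 animals with 10 insertions or more. Over all insertions of the same tables the share was 49.98% ± 0.0723 (SD, n = 26). The spread of this share among single loci was not counted, so whether such a skew is unusual for a locus was not tested. Dio2 is annotated on the minus strand and Thrb on the plus strand, so the excess at both on plus is not 1 orientation relative to the gene.

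Across the remaining groups the levels were these. Dio2 was lower in C57bl6J (42.7 and 54.4 IPM) than in any animal of the Syn1Cre, Syn1CreNeg, GFAPCre and GFAPCreNeg groups, and Slco1c1 had 70.5 and 80.9 there. Its astrocyte sums, 506 and 549, were also below those of these 4 groups, and Rbp4Cre_TRAP reached from 179 to 533. In Frontflip_GFAPCre Dio2 had 151, 274 and 361 and Slco1c1 204, 212 and 404. In Frontflip_GFAPCreNeg Dio2 had 833, 1709 and 530 IPM, but from 8, 4 and 3 insertions, and the exact Poisson intervals of the 3 animals reach from 109 to 4375 IPM. The second of these animals had no insertion in Slco1c1, Thra or Thrb. A count of 0 there allows up to 1281.5 IPM (3 counts), or 1576 by the exact Poisson interval. In Rbp4Cre_TRAP Thrb was the highest of the 4 members in every animal, with 368, 477, 275 and 656 IPM. The same held in every C57bl6J, Syn1Cre, GFAPCre and BrokenHeart animal. IPM is not scaled by locus length, and the Thrb locus is the longest (400.9 kb). In Rbp4Cre_TRAP Dio2 rested on 0 to 3 insertions and Slco1c1 on 0 to 6. BrokenHeart, read from DNA, had 395, 214 and 306 for Thrb and 17.2, 50.9 and 94.1 for Dio2. Intervals and floors cover counting error only.

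Ordered by mean level over the 11 groups, Dio2 ran from Frontflip_GFAPCreNeg through Syn1CreNeg, GFAPCreNeg, SP1 at P28, Frontflip_GFAPCre, SP1 at P10, Syn1Cre, GFAPCre, BrokenHeart and C57bl6J to Rbp4Cre_TRAP, and each neighbour in this order overlapped the next. For Slco1c1 the same held except between C57bl6J and BrokenHeart. Thra had a gap between SP1 at P10, the second highest, and Frontflip_GFAPCre (means 151 and 67.3). Thrb had one between C57bl6J and SP1 at P10 (254 and 174). In the N2a line, a single pooled table of 806653 insertions, Slco1c1 had 0 insertions. This allows up to 3.72 IPM (3 counts), or 4.57 by the exact 95% Poisson interval. Dio2 had 12 (14.9 IPM, exact 95% Poisson interval 7.69 to 26.0), Thrb had 7 (8.68, interval 3.49 to 17.9), and Thra had 43 (53.3, interval 38.6 to 71.8), a level inside the range of the cortical groups. In N2a 2 of the 10 astrocyte markers, Aqp4 and Gjb6, were at 0.

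The rest of the pathway was followed with 29 further genes: 6 transporters, 4 enzymes and binding proteins, 11 receptor partners and coregulators, and 8 hormone-responsive genes. In Syn1Cre against GFAPCre none of the 23 tested passed edgeR's adjusted threshold, 3 had an unadjusted p under 0.05, and DESeq2 called none. The list median was -0.09 beside 0.00 for all loci. In Syn1Cre against Syn1CreNeg 4 of 19 changed, beside 31.0% of all loci. Klf9, a transcription factor gene induced by thyroid hormone, fell by 0.88 on the log2 scale (SE 0.16, edgeR adjusted p = 0.00012), from 186 ± 36.6 to 102 ± 28.7 TMM-scaled IPM (SD, n = 6 each). The transporter genes Slc16a10 (0.54, SE 0.18, edgeR adjusted p = 0.023) and Slc7a8 (0.51, SE 0.19, edgeR adjusted p = 0.042) rose, as did Camk4, a calcium-dependent kinase gene (0.35, SE 0.13, edgeR adjusted p = 0.033). The list median was 0.11, beside 0.02 for all loci. Without Syn1CreNeg animal 4 the 4 calls became 2, and without animal 6 they became 1. In GFAPCre against GFAPCreNeg 1 of 21 changed, beside 8.11% of all loci: Mbp, the myelin basic protein gene, rose by 0.47 (SE 0.14, edgeR adjusted p = 0.03), from 87.5 ± 24.5 to 126 ± 13.0 (SD, n = 6 each), with a list median of 0.15 beside 0.02. The call was lost without GFAPCre animal 1 or 4, and without GFAPCreNeg animal 2, 4 or 6.

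In the SP1 groups the list changed about as often as all loci did. At P28 13 of 24 changed, 4 higher and 9 lower, beside 51.5% of all loci (26.2% higher, 25.3% lower), with a list median of -0.28 beside -0.06 for all loci. At P10 10 of 25 did, 3 higher and 7 lower, beside 40.8% (19.6% and 21.2%), with -0.50 beside -0.28. Both comparisons use the same Syn1Cre animals. Of 5 transporters tested, 1 rose past the threshold and 2 fell at P28, and 1 rose and 1 fell at P10. For the 3 enzymes and binding proteins tested, 1 rose and 1 fell at P28, and 1 rose and 0 fell at P10. The 10 receptor partners and coregulators tested had 0 that rose and 4 that fell at P28, and 1 and 3 at P10. Among transporters, Slc7a5, the large neutral amino acid carrier that also takes thyroid hormone, rose by 2.51 at P28 (SE 0.27, edgeR adjusted p = 3.98e-08), from 7.59 ± 1.46 (SD, n = 6) to 42.6 ± 10.4 (SD, n = 4), and by 2.47 at P10 (SE 0.47, edgeR adjusted p = 0.000128). Among enzymes, Dio1, a further deiodinase gene, rose by 1.33 at P28 (SE 0.28, edgeR adjusted p = 0.000278) and by 2.10 at P10 (SE 0.36, edgeR adjusted p = 4.37e-05). The loci of Hspb11 and Yipf1 overlap the Dio1 flanks and that of Car5a a Slc7a5 flank, so that those insertions may count for more than 1 gene. The coactivator gene Ncoa1 fell by 0.80 at P28 (SE 0.16, edgeR adjusted p = 0.000133) and by 1.32 at P10 (SE 0.22, edgeR adjusted p = 2.5e-05).

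Past the adjusted threshold, 2 of the 6 hormone-responsive genes tested at P28 rose and 2 fell. Of the 7 tested at P10 none rose past it and 3 fell. Those that rose at P28, named after their values were seen, were Klf9 (0.80, SE 0.21, edgeR adjusted p = 0.00291) and Dbp, a clock output gene (0.63, SE 0.25, edgeR adjusted p = 0.0395). Camk4 fell by 1.25 at P28 (SE 0.18, edgeR adjusted p = 2.92e-06) and by 2.25 at P10 (SE 0.31, edgeR adjusted p = 1.56e-06). Mbp fell by 1.08 (SE 0.17, edgeR adjusted p = 1.18e-05) and 1.77 (SE 0.33, edgeR adjusted p = 0.000108). With scaling by table totals the 13 calls at P28 became 11, 8 higher and 3 lower, and the 10 at P10 became 8, 4 and 4. Slc7a5 (2.98 and 3.02) and Dio1 (1.82 and 2.65) stayed past the threshold and above 0, and Camk4 and Mbp past it and below 0 at both ages, while Ncoa1 was past it at P10 only (-0.77). In P28 against P10 none of the 7 tested passed in edgeR, 4 had an unadjusted p under 0.05, and DESeq2, with 2 of them tested, called none. There the list median was 0.58 beside 0.03 for all loci.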

How the data were processed

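Calling card tables of 46 mice and of pooled N2a cells were used. The authors deposited 1 line per insertion with its position, strand and read counts per insertion; mm10, Novoalign and Bowtie2 are named, with no versions, per the submitters' processing notes, and filters are not given in the sources used here. Insertions, not reads, were counted in each of 21627 protein-coding loci (gene body with 10 kb on each side, GRCm38). Groups were compared with edgeR 4.0.16 (R 4.3.3; quasi-likelihood test, TMM factors, filterByExpr, Benjamini-Hochberg adjustment over all loci, threshold 0.05), with DESeq2 1.42.0 and total scaling as alternatives. Shares near the start used exact two-sided permutation tests over animals with at least 10 insertions (SciPy 1.17.1).

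The members and lists were chosen with earlier results of these data known. Named pathway genes are those past the threshold, at most the 6 with the smallest adjusted p in a comparison. One gene that this rule names is not reported here. Likeness used log2 of IPM (insertions in every 1000000) plus 1, over loci with a mean of at least 20 IPM and at least 1 Mb away. On simulated data, 46% of loci changed 3-fold were recovered for P10 against Syn1Cre and 98% to 100% for the other 5 comparisons. Of 194 GEO samples, 77 name animals of more than 1 group, and animals were assigned by the table each label names.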

Additional observations from a re-analysis of the deposited data

Results flagged for a closer look

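Over levels and shares near the start, 44 sets of values (1 group at 1 locus, 4 to 10 animals) were examined, and 4, all of levels, held an animal that stood apart by Dixon's criterion, and chance alone flags about 1 in 20. Syn1Cre animal 5 stood apart at Dio2 with 284 IPM, where the next animal had 118, and at Slco1c1 with 309, where the next had 136. GFAPCreNeg animal 6 stood apart at Dio2 with 548 IPM, where the next had 331. Both animals also had the highest summed level of astrocyte loci in their group. Rbp4Cre_TRAP animal 2 stood apart at Thra with 159 IPM, which rests on 8 insertions.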

How the results depend on the processing

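Under the alternatives, 363 of 411 log2 fold changes of the members moved by less than their standard error and the other 48 moved further. Of the pathway counts, 84 of 103 stayed within 1.5 times the main count. In Syn1Cre against GFAPCre the count was 1 with Syn1Cre of the first layout. In Syn1Cre against Syn1CreNeg it was 2 with no filter and 2 within the first layout. In GFAPCre against GFAPCreNeg it was 2 with no filter and 0 in animals of shared libraries. With gene bodies alone it was 6 at P28 and 6 at P10 against Syn1Cre, where fewer list genes could be tested. Leaving out 1 animal at a time gave 0 to 0, 1 to 4, 0 to 2, 12 to 14, 8 to 11 and 0 to 2 in the order of the comparisons above, ending with P28 against P10.

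Counts over all loci past the threshold differed by more than 1.5 times from the main fit in some settings. For Syn1Cre against GFAPCre (248) it was 1634 with the first layout only. Without 1 animal it ran from 128 (Syn1Cre animal 2 left out) to 847 (Syn1Cre animal 5 left out). For Syn1Cre against Syn1CreNeg (2668) it was 969 within the first layout. For GFAPCre against GFAPCreNeg (746) it was 318 in animals of shared libraries and 386 without GFAPCre animal 2. For P28 against Syn1Cre (6211) it was 2837 with gene bodies, and for P10 against Syn1Cre (5249) 2335 with gene bodies. For P28 against P10 (385) it was 167 in DESeq2, 225 with distinct positions and 196 with gene bodies. Leaving out 1 animal brought P28 against P10 to 142, 98 and 7 loci for P10 animals 1, 2 and 3. It was 166 without P28 animal 1.

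The replicate numbers were checked for pairing, and the correlation of same-numbered animals ran from -0.221 to 0.171, so the animals share only a number. With the replicate block the list counts were 0, 3, 1, 13, 11 and 2 in the same order, and P28 against P10 went from 385 to 527 loci. With the block, Slco1c1 passed the threshold at P28 (0.91), P10 (0.68) and in P28 against P10 (0.83), Dio2 in P28 against P10 (1.22), and Thra at P10 (0.46) did not. These fits called 5977 of 11762 loci at P28, 4868 of 9210 at P10 and 527 of 3024 in P28 against P10. The members were chosen on these counts, so nothing is read from their calls.

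Shares near the start kept direction and side of the threshold in 122 of 147 alternatives. Against Syn1Cre, Dio2 turned within 5 kb to 2.51 points at P28 and 12.5 at P10. Slco1c1 turned at P28 within 1 kb (-3.67). Thra turned at P28 within 1 kb (1.77) and over distinct positions (2.12), and at P10 within 1 kb (5.54) and 5 kb (3.62). Against GFAPCre, Slco1c1 turned within 5 kb (-2.66), and the near-zero Thrb difference was 1.71 within 1 kb, 0.358 within 5 kb and 0.0680 over distinct positions, and -1.27 to 0.735 without 1 animal. Past the threshold were Thrb at P28 within 1 kb (18.5), 5 kb (18.9) and over distinct positions (14.5), Thrb at P10 within 1 kb (31.7) and 5 kb (45.9), Dio2 at P10 within 1 kb (-10.6), and Dio2 against GFAPCre within 5 kb (-8.97). Without 1 animal Thrb ran from 13.4 to 24.4 at P28 and 45.8 to 47.8 at P10. The cause of these moves was not tested. Among the groups whose shares were tested, depth limits P10 most, with 9 to 22 insertions per animal and member.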
